A study of Homo sapiens with 20 samples.

Results

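The comparison described here sets Mel202 uveal melanoma cells kept for 48 h in 100 nM 9-cis retinoic acid (9-cis RA) against cells kept for 48 h in its ethanol vehicle (EtOH). It rests on 6 of the 20 arrays of the series, those labelled as 48 h of 9-cis RA (3 arrays) or of EtOH (3 arrays). Arrays whose titles carry the same sample number were averaged, which left 2 samples in each group, or 4 of 14 samples in all. Replicate 1 is a single array, and replicate 2-3 stands for arrays 2 and 3 averaged. The other groups hold 24 h of EtOH, 24 h of 9-cis RA, and 24 or 48 h of all-trans retinoic acid (ATRA) at the same dose. Mel202 is 1 line, from a locally recurrent, irradiated primary tumour of the uveal tract, and carries the GNAQ changes Q209L and R210K with wild-type BRAF per the labels. The cells of every group were treated in their regular serum-containing medium. The labels do not say whether samples were separate cultures. Unless stated otherwise, every p-value and SE below rests on the scatter within all 6 groups of the 14 samples, not on that of the 4 compared samples alone. Part of this scatter may be technical.

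Retinoic acid acts through retinoic acid receptors (RARs), which bind DNA as pairs with retinoid X receptors (RXRs) at repeats of a short core motif. ATRA is a ligand of RARs, whereas 9-cis RA, its isomer about a side chain double bond, binds RARs and also RXRs. RXRs further pair with the lipid sensors LXR and PPAR, and some of those pairs can be switched on from the RXR side. The genes for enzymes that break down retinoic acid, led by CYP26A1, are classical RAR targets.

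Of the 8 retinoic acid response genes that rose here, 2 hold a direct repeat with a spacer of 5 bases (DR5) in the 250 bases before an annotated start, searched on both strands with the core motifs AGGTCA and AGTTCA or their variants GGGTCA and GGTTCA. These 2, CYP26A1 and RARB, are shown because they alone of the 8 hold such a repeat. CYP26A1 had the largest rise of the comparison, and RARB encodes a receptor for the ligand itself. The sequences, from RefSeq on GRCh38.p14, are given 5′ to 3′ on the strand of the gene, with the core motifs in capitals.
CYP26A1: taaagaTGAACTttgggTGAACTaattgt
RARB: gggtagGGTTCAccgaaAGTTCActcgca
The CYP26A1 stretch lies at chr10:93073797-93073825 on the plus strand, and its repeat, which reads on the minus strand, covers bases 90 to 74 before the start. That of RARB lies at chr3:25428204-25428232 on the plus strand, with the repeat on bases 53 to 37 before the start. Such a DR5 occurs in 26 of 35116 windows of this length (0.074%) and in 5 of the 8652 tested genes with a window (0.0578%). The called members have 19 windows in all, which hold no DR2 or DR1 of these motifs (spacers of 2 or 1 bases). A match describes letters in this window and shows no binding.

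All 6 arrays carried the melanocytic profile that the label names. The 7 measured markers (PMEL, MLANA, TYR, TYRP1, MITF, SOX10 and S100A1) were detected on every one of them. The arrays detected 13354 to 16810 probes with 9-cis RA and 14214 to 16300 with EtOH, at a detection p under 0.01. The EtOH samples at 48 h differed from each other more than the 9-cis RA samples did, with a median absolute log2 difference between samples of 0.309 against 0.157, and 532 against 31 genes more than 2-fold apart. At 24 h the median was 0.125 with EtOH and 0.136 with 9-cis RA, with 17 and 29 such genes. The shared spread behind each SE draws on these closer pairs too. On the first principal component of all samples (42.7% of the variance), EtOH replicate 1 lay at -41.14 and replicate 2-3 at -18.98, and the 9-cis RA samples at 15.24 and 12.47. Precision is limited by the small number of arrays.

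Of 10673 tested genes, 1176 (11.0%) differed at an adjusted p under 0.05 in limma's moderated test (Benjamini-Hochberg over all tested genes). The rises (590 genes, 5.53%) and the falls (586, 5.49%) were about equal in number, but 40 genes rose and 14 fell by 4-fold or more. The samples of the groups were apart in all 1176 called genes, and in 5232 of all 10673. The median difference over all genes was -0.01 on the log2 scale. The count changed with the samples kept. It was 699 without EtOH replicate 1, 2576 without EtOH replicate 2-3, and 442 and 583 without 9-cis RA replicates 1 and 2-3.

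**Figure D1:**
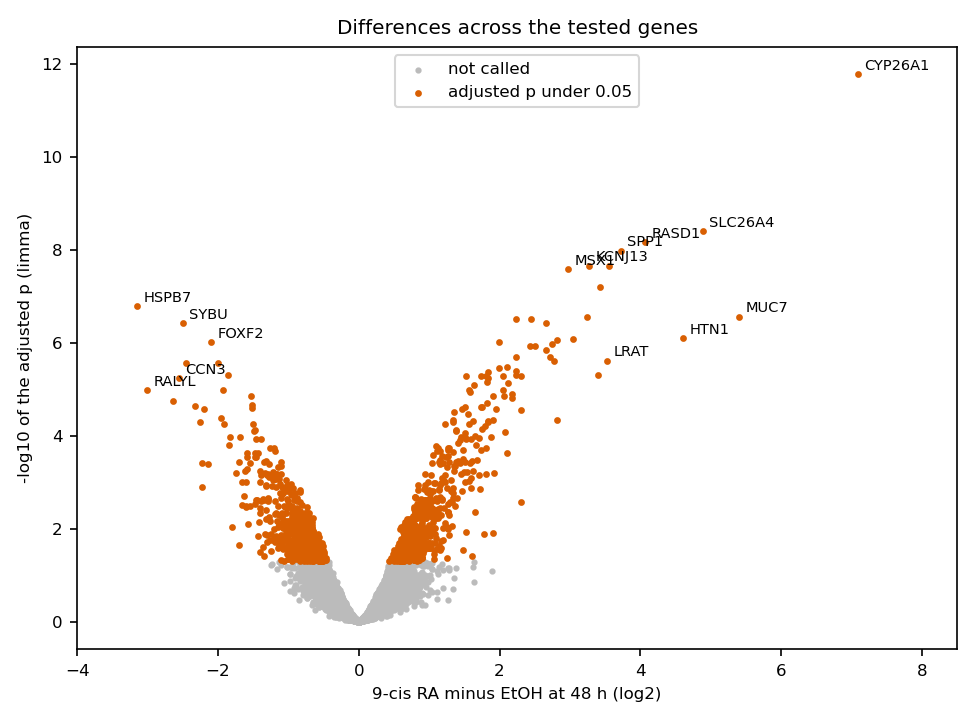
Each point is 1 of the 10673 tested genes, with the log2 difference of 9-cis RA from EtOH at 48 h on the x axis and -log10 of limma's adjusted p on the y axis. The 1176 called genes are orange, and CYP26A1 stands at a fitted 7.10, beyond the next gene at 5.40.

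Values are normalized log2 intensities, given for replicate 1 and then replicate 2-3, and differences are 9-cis RA minus EtOH in log2 ± SE with 2 samples in each group. The SE uses the spread within all 6 groups of the series. Where a gene was detected on 0 or 1 of 3 arrays of a group, a fold of "at least" sets the bright group's mean against the detection bound of the dim group. This bound is, on each array, the higher of the lowest detected signal and the probe's own. Such a fold carries no sampling error, and its p belongs to the fitted difference, which uses the signals under detection.

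The genes with the strongest rises were a retinoic acid hydroxylase, 2 secreted proteins better known from saliva, an anion exchanger and a RAS-like G protein. CYP26A1 stood at 4.64 and 4.60 with EtOH, below detection on all 3 arrays, and at 11.76 and 11.68 with 9-cis RA, at least 65.1-fold higher (adjusted p = 1.68e-12). Its 2 other detected probes had fitted differences of 3.99 and 4.51, less than the 7.10 of the brightest one. The salivary mucin MUC7 was undetected with EtOH (4.60 and 4.89) and reached 10.19 and 10.11, at least 21.9-fold higher (adjusted p = 2.73e-07). SLC26A4, the anion exchanger pendrin, went from undetected values of 4.74 and 4.82 to 9.68 and 9.66, at least 15.7-fold (adjusted p = 3.87e-09). In these 3 genes the treated samples lay close together and far above both controls.

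HTN1, the salivary peptide histatin, was already expressed with EtOH (8.51 and 7.41) and stood at 12.54 and 12.59 with 9-cis RA, a rise of 4.61 ± 0.31 (adjusted p = 7.86e-07). Its controls were the more scattered pair. RASD1, a RAS-related G protein inducible by steroids, rose from 6.15 and 6.38 to 10.37 and 10.29, by 4.07 ± 0.16 (adjusted p = 6.84e-09). SPP1, the secreted phosphoprotein osteopontin, rose from 9.56 and 9.77 to 13.38 and 13.40, by 3.72 ± 0.16 (adjusted p = 1.04e-08). MGP, the matrix Gla protein that inhibits calcification, rose by 3.43 ± 0.18 and RFTN1, a lipid raft protein, by 3.55 ± 0.16, with adjusted p of 6.29e-08 and 2.18e-08.

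Several others went from undetected to detected on all 3 treated arrays. LRAT, which esterifies retinol for storage, was at least 8.11-fold higher, the potassium channel gene KCNJ13 at least 6.1-fold, and MME, which encodes the peptidase neprilysin, at least 4.78-fold. EGFL8 and UBAP1L were at least 6.4 and 5.91 times as high. CYP19A1, the aromatase that makes oestrogens, was detected on 1 of 3 EtOH arrays and was at least 4.72-fold higher. The homeobox gene MSX1 rose from 8.64 and 8.78 to 11.70 and 11.66, by 2.97 ± 0.14 (adjusted p = 2.64e-08). The adjusted p of the other 6 genes was 4.66e-05 or less.

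**Figure D2:**
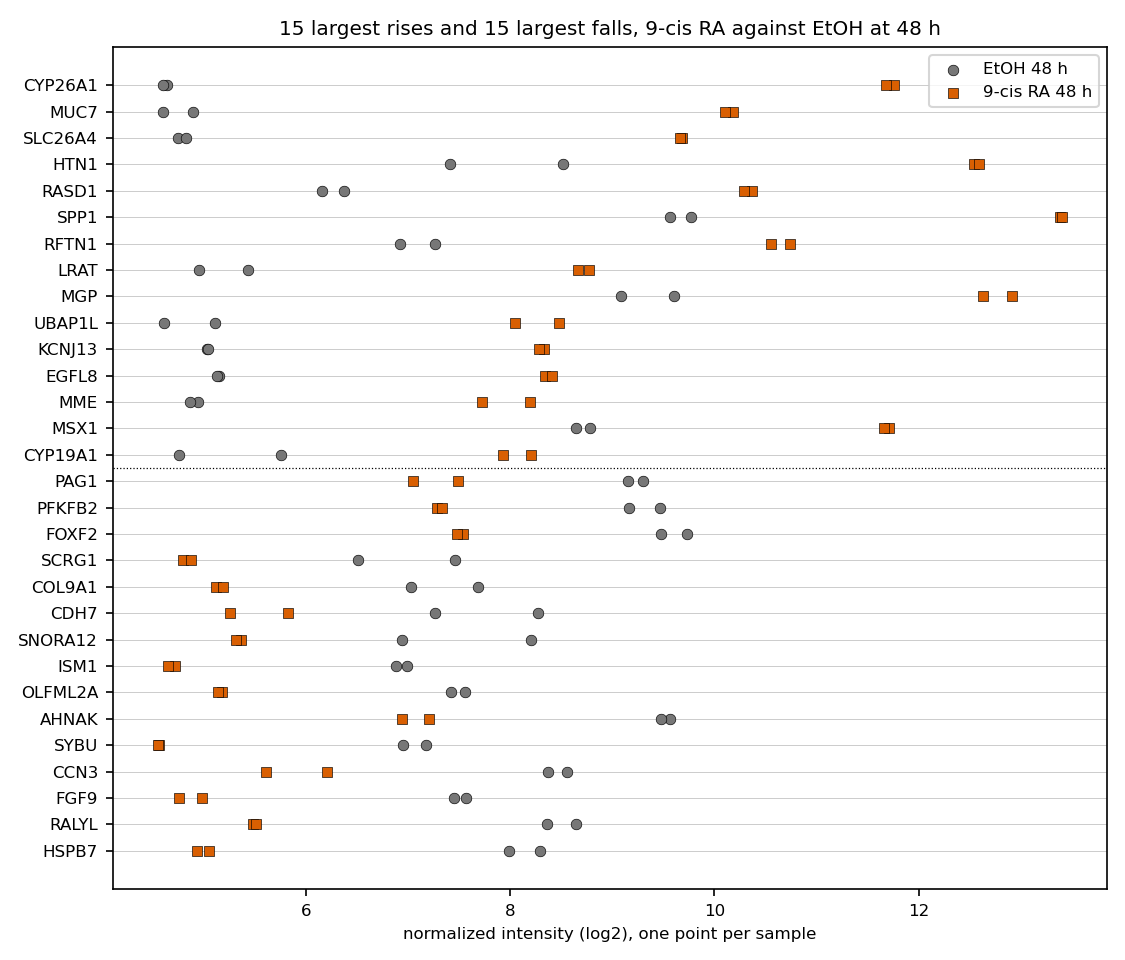
Normalized log2 intensity (x axis) of the 15 largest rises and, below the dotted line, the 15 largest falls, with 1 point for each of the 2 EtOH (grey circles) and 2 9-cis RA samples (orange squares). The groups are apart in all 30 genes because only calls without overlap were eligible, and the EtOH pair is the wider one in 22 of them. It is more than 0.5 apart in 8 genes (HTN1, MGP, UBAP1L, CYP19A1, SNORA12, CDH7, COL9A1 and SCRG1), the 9-cis RA pair in 2 (CCN3 and CDH7).

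The largest falls were smaller than the largest rises, and many of them ended near or below detection. HSPB7, a small heat shock protein of heart and skeletal muscle, stood at 8.29 and 7.99 with EtOH and at 5.05 and 4.94, undetected, with 9-cis RA, at least 5.51-fold lower (adjusted p = 1.63e-07). RALYL, which encodes an RNA-binding protein of the brain, went from 8.36 and 8.65 to 5.49 and 5.51, a difference of -3.01 ± 0.27 (adjusted p = 1.05e-05), and was still detected on 2 of 3 treated arrays. FGF9, a growth factor, was undetected with 9-cis RA and at least 3.56-fold lower (adjusted p = 1.76e-05). In each of these the EtOH samples lay closer to each other than to any treated sample.

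CCN3, a matricellular protein, went from 8.37 and 8.55 to 6.21 and 5.61, a difference of -2.56 ± 0.22. The giant scaffold protein gene AHNAK went from 9.57 and 9.48 to 6.94 and 7.21, by -2.45 ± 0.19, and stayed detected on all arrays. SYBU, whose product links vesicles to kinesin, OLFML2A, the secreted ISM1, SCRG1 and the cartilage collagen gene COL9A1 became undetected, at least 2.61, 3.51, 2.39, 2.47 and 3.2-fold lower. The cadherin CDH7 (-2.23 ± 0.30), the forkhead factor FOXF2 (-2.10 ± 0.14), the glycolysis regulator PFKFB2 (-2.01 ± 0.15) and the membrane adaptor PAG1 (-1.96 ± 0.20) also fell. One of the 2 other probes of PFKFB2 gave -0.71. For these 11 genes the adjusted p was 0.000396 or less.

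Of 20 listed retinoic acid response genes 10 were tested. With only the compared groups in the fit 4 rose and 0 fell, and without each sample in turn the list median was 0.96 to 1.30. In the fit of all groups 8 rose and 0 fell (median 1.12, against 5.53% higher and a median of -0.01 over all genes). Beside CYP26A1 and LRAT these were DHRS3, which reduces retinal to retinol (undetected with EtOH, at least 2.42-fold, adjusted p = 4.93e-05), and NRIP1, a corepressor of nuclear receptors (7.14 and 7.70 against 9.57 and 9.72, a rise of 2.23 ± 0.18, adjusted p = 4.91e-06). The homeobox partner MEIS2 rose by 1.15 ± 0.20. RARB went from 6.94 and 7.14 to 8.22 and 8.01 (by 1.08 ± 0.17, adjusted p = 0.00105; 0.76 and 1.56 from its other probes). RARA, the other receptor gene on the list, went from 9.48 and 9.07 to 10.52 and 10.19, by 1.08 ± 0.27 (adjusted p = 0.0207). CYP26B1, which degrades retinoic acid as CYP26A1 does, rose only by 0.65 ± 0.15 (adjusted p = 0.0153). The calls of RARA and CYP26B1 were each lost in 3 of the 4 fits without 1 sample.

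The RXR genes gave no call, with RXRA at 10.02 and 9.52 against 9.64 and 9.56 (-0.17 ± 0.17, adjusted p = 0.576) and RXRB at 0.15 ± 0.16 (adjusted p = 0.616). Of 11 tested genes of retinoid metabolism and transport 2 rose and 2 fell, a median of 0.06. Over all tested genes 5.53% were called higher and 5.49% lower. ALDH1A2, which makes retinoic acid from retinal, rose from 6.10 and 5.92 to 7.30 and 7.43, by 1.35 ± 0.14 (adjusted p = 3.02e-05). RLBP1, the retinal-binding protein of the visual cycle, was detected on 1 of 3 EtOH arrays and was at least 1.85-fold higher (adjusted p = 0.0008). FABP5, a fatty acid carrier that can also carry retinoic acid, fell from 12.16 and 11.77 to 10.45 and 10.54, a difference of -1.47 ± 0.16 (adjusted p = 7.62e-05). RDH10, which oxidises retinol, differed by -0.67 ± 0.18 (adjusted p = 0.0277), a call kept in 1 of the 4 fits without 1 sample. Of 10 coregulators NRIP1 and the demethylase KDM1A (1.00 ± 0.19, adjusted p = 0.00427) rose, the latter not without 9-cis RA replicate 1.

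Genes controlled by the other partners of RXR changed in part. None of the LXR and PPAR genes named here and in the next paragraph passed in limma's direct comparison with ATRA at 48 h. CD36 came closest (0.93, adjusted p = 0.0818), and ABCA1 differed by 0.42 (adjusted p = 0.877). Of 12 LXR targets 4 rose and 1 fell (median 0.49), against 5.53% and 5.49% of all tested genes. The cholesterol exporter ABCA1 rose from 8.28 and 8.60 to 9.89 and 9.72, by 1.37 ± 0.19 (adjusted p = 0.000453). The apolipoprotein APOC1 (0.84 ± 0.22), the desaturase SCD (0.60 ± 0.17) and SMPDL3A (0.60 ± 0.18) had adjusted p of 0.0237, 0.0399 and 0.0422. PLTP, which transfers phospholipids between lipoproteins and is itself known as an LXR target, fell by 1.02 on the log2 scale (adjusted p = 0.0023), with -0.27 from its other probe. ABCG1 (undetected with EtOH, adjusted p = 0.157), SREBF1 (0.53 ± 0.17, adjusted p = 0.0608) and MYLIP (-0.07 ± 0.16) did not pass. Without 9-cis RA replicate 2-3, 1 target rose in place of 4, and without replicate 1 there were 2. ABCA1 and PLTP alone of the 5 kept their call without each sample.

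Of 13 PPAR targets and genes of fatty acid oxidation 5 rose and 1 fell (median 0.33), against the same 5.53% and 5.49%. CD36, a scavenger receptor that takes up fatty acids, rose from 9.70 and 9.92 to 11.34 and 11.11, by 1.41 ± 0.17 (adjusted p = 0.000142). At 24 h its difference was -0.00 ± 0.17, and the change between the times was 1.41 ± 0.24 (adjusted p = 0.0698). ACSL1, which activates fatty acids (1.20 ± 0.29), the lipid droplet coat gene PLIN2 (0.65 ± 0.14), HADHB of mitochondrial oxidation (0.64 ± 0.15) and the carnitine carrier SLC25A20 (0.60 ± 0.17) had adjusted p between 0.00816 and 0.0381, whereas FABP3, a muscle fatty acid carrier, fell (-0.995 ± 0.23, adjusted p = 0.0133). PDK4 (-0.27 ± 0.14) and ANGPTL4 (0.22 ± 0.32), both common PPAR targets, did not pass. CD36 alone of the 6 was called in every fit without 1 sample, and 2, 6, 1 and 3 members rose without EtOH replicates 1 and 2-3 and 9-cis RA replicates 1 and 2-3. In limma 0 of 12 cholesterol synthesis genes were called (4 at an unadjusted p under 0.05), and 4 rose and 1 fell without EtOH replicate 2-3.

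Pigmentation genes changed in both directions. Of 19 tested 4 rose and 2 fell, against 5.53% and 5.49% of all tested genes, with a median of 0.09. RAB27A, which tethers melanosomes for transport, rose from 7.92 and 8.38 to 9.33 and 9.48, by 1.25 ± 0.18, and the endothelin receptor EDNRB from 11.49 and 12.13 to 13.11 and 12.98, by 1.23 ± 0.19 (adjusted p = 0.000478 and 0.000996). Tyrosinase (TYR), the first enzyme of melanin synthesis, rose by 0.69 ± 0.16, as did SLC45A2, a transporter of the melanosome, by 0.63 ± 0.14. The melanocortin receptor MC1R (-0.71 ± 0.16) and HPS4 of melanosome biogenesis (-0.83 ± 0.16) fell. The melanosomal proteins PMEL (0.06 ± 0.14) and MLANA (0.31 ± 0.16) and the lineage factor MITF (0.50 ± 0.16, adjusted p = 0.0699) did not pass. The calls of TYR, SLC45A2, MC1R and HPS4 were lost without 9-cis RA replicate 1, and those of TYR and MC1R in 3 and 2 of the 4 such fits.

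Of 13 transcription factors of melanocytes and neural crest, TBX2 (0.92 ± 0.16, adjusted p = 0.00251), TWIST1 (0.82 ± 0.19) and PAX3 (0.79 ± 0.23, with 0.06 to 0.64 from its 3 other probes) rose and 0 fell, and TBX2 alone kept its call without each sample. There were 6 rises without EtOH replicate 2-3 and 1 without each of the other samples, where 1 member fell without EtOH replicate 1 or 9-cis RA replicate 1. Beside the counts of this paragraph, 5.53% of all tested genes were called higher and 5.49% lower. Of 9 tested genes known from the retinal pigment epithelium, a pigmented layer next to the photoreceptors, 4 rose and 0 fell. They were LRAT, KCNJ13, RLBP1 and MERTK, a receptor for the uptake of photoreceptor fragments, which went from 7.98 and 7.86 to 10.45 and 10.30, by 2.45 ± 0.15 (adjusted p = 3.02e-07). LRAT and RLBP1 also belong to the retinoid lists. Without EtOH replicate 2-3, 2 members fell. BEST1 (-0.45 ± 0.15) and SERPINF1, which encodes a secreted serpin (0.29 ± 0.20), did not pass, nor did TTR, a retinol carrier partner, CRX and RGR, each detected on at most 1 array of either group. RPE65, OTX2, SLC16A8 and RDH5 of this list were not analysed here.

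Among the few genes that classify uveal melanomas, 5 of the high-risk class 2 were tested. Of these 1 rose, 1 fell and 3 were not called (median -0.06), against 5.53% higher and 5.49% lower over all tested genes. ECM1, a matrix protein of this class, rose from 7.75 and 7.79 to 9.30 and 9.28, by 1.52 ± 0.13 (adjusted p = 5.11e-06). The serotonin receptor HTR2B of the same class fell from 9.99 and 10.08 to 9.61 and 9.46, by 0.50 on the log2 scale (adjusted p = 0.0327), a call lost without any 1 of the 4 samples. Of 8 class 1 genes, SLC16A4 rose (1.26 ± 0.24, and 0.21 from its other probe), against 5.53% of all tested genes.

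Lists on signalling near GNAQ, a Gq subunit, changed in part. On the Gq pathway list of 14 tested genes 1 rose and 5 fell, against 5.53% and 5.49% of all tested genes. The list median was -0.45, and the rise was that of RASD1, the RAS-related G protein described above. RGS2, which shortens Gq signals, went from 9.73 and 9.66 to 8.48 and 8.52, by -1.19 ± 0.15 (adjusted p = 0.000215). Phospholipase PLCB1, detected on 1 treated array, and the regulator RGS16, detected on none, fell at least 1.6-fold and 1.44-fold (adjusted p = 0.00904 and 0.00845). PRKCB, a protein kinase C (-0.79 ± 0.22, with -0.03 to -0.47 from 4 other probes), also passed, as did PLCB2 (adjusted p = 0.0262), which was detected on 1 EtOH array and no treated one, so that no fold is given. RGS2 alone of the 5 kept its call without each sample, and 2 of the list fell without EtOH replicate 1 or without 9-cis RA replicate 1, and 3 without 9-cis RA replicate 2-3.

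Of 16 outputs of the MAPK pathway 3 rose and 0 fell, or 4 and 1 without EtOH replicate 2-3. The receptor signalling antagonist SPRY1 went from 6.90 and 7.20 to 9.00 and 9.01, by 1.95 ± 0.19, PHLDA1 rose by 1.84 ± 0.20 and IER3 by 1.35 ± 0.19 (adjusted p = 2.65e-05, 4.9e-05 and 0.000446). Beside this count and those that follow here, 5.53% of all tested genes were called higher and 5.49% lower. Of 10 immediate early genes EGR1 fell (-0.87 ± 0.18, adjusted p = 0.00693) and 0 rose. Of 9 Kruppel-like factors KLF9 rose, from 7.71 and 7.89 to 10.60 and 10.54, by 2.77 ± 0.21 (adjusted p = 2.41e-06), and KLF15 fell (-1.02 ± 0.29, adjusted p = 0.0354). Of 13 YAP and TEAD targets 0 rose and 3 fell, a median of -0.27. They were FOXF2, FJX1 (-0.88 ± 0.15) and ARHGEF17, which was detected on no treated array and was at least 1.18-fold lower (adjusted p = 0.00491), a call lost without 9-cis RA replicate 1. Without EtOH replicate 2-3, 2 immediate early genes, 2 Kruppel-like factors and 1 YAP and TEAD target rose, and 5 of the latter fell. EGR1 and KLF15 were not called without EtOH replicate 1 or without 9-cis RA replicate 1, and KLF15 not without replicate 2-3 of the latter.

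In limma 0 of 19 S phase genes and 0 of 20 genes of G2 and mitosis were called, with 2 and 1 at an unadjusted p under 0.05. Their medians were -0.12 and 0.02, and by the brightest probe of each gene their members lay between -0.50 and 0.43. Other probes of single members gave 1.28 for MCM7 (0.05 by its brightest) and -0.21 for MCM3 of S phase, and -0.55 for the mitotic UBE2C. Over all tested genes, 5.53% were called higher and 5.49% lower, beside these counts and those below. Without EtOH replicate 2-3, 1 S phase gene rose and 1 fell, and 2 mitotic genes rose and 1 fell. Of 15 G1 cyclins and inhibitors CDKN1C, which encodes a CDK inhibitor, was detected on 1 EtOH array and rose at least 1.5-fold (adjusted p = 0.0275), a call lost in 3 of the 4 fits without 1 sample, while 5 genes rose and 1 fell without EtOH replicate 2-3. Of 14 genes of the BCL2 family BNIP3L (1.00 ± 0.23) and BMF (0.90 ± 0.26) rose and PMAIP1 fell (-0.90 ± 0.21, and -0.13 from its other probe), and none of the 3 kept its call without EtOH replicate 1 or 9-cis RA replicate 1.

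**Figure D3:**
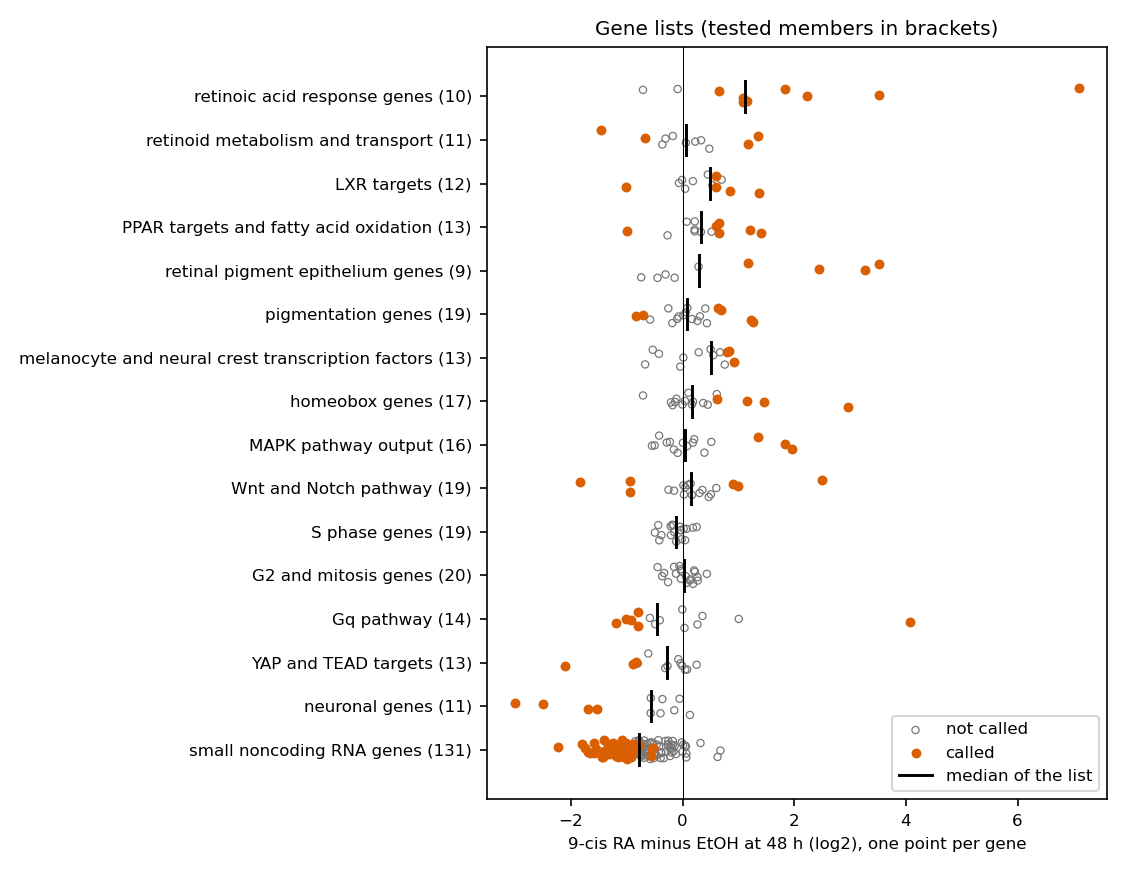
Log2 difference of 9-cis RA from EtOH at 48 h (x axis) for the tested members of 16 gene lists, with called genes filled in orange, others open, and the median as a bar. The median of the retinoic acid response genes lies at 1.12, those of the S phase and mitosis genes at -0.12 and 0.02, and that of the small noncoding RNA genes at -0.77.

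The called developmental regulators moved in both directions. Their counts below stand beside 5.53% of all tested genes called higher and 5.49% called lower. Of 17 homeobox genes 4 rose and 0 fell (1 without EtOH replicate 2-3), MSX1, MEIS2, HOXA2 (undetected with EtOH, at least 1.93-fold, adjusted p = 0.000664) and DLX1 (0.61 ± 0.17, a call lost in 3 of the 4 fits without 1 sample). Of 19 Wnt and Notch genes 3 rose and 3 fell. HEY2, a transcriptional effector of Notch, went from 7.57 and 7.30 to 10.00 and 9.88, by 2.50 ± 0.18 (adjusted p = 1.17e-06), and HES1 rose by 1.00 ± 0.19. Its relative HEY1 fell (-0.94 ± 0.17, and -0.09 from its other probe), as did the ligand JAG2 (-0.94 ± 0.19) and LFNG, which modifies the receptors (1 of 3 treated arrays, at least 2.98-fold lower, adjusted p = 0.000156). The Wnt antagonist SFRP1 rose by 0.91 ± 0.17. The call of SFRP1 was lost without 9-cis RA replicate 1 and that of JAG2 without replicate 2-3. BAMBI, a decoy receptor, was the 1 of 14 TGF-beta and BMP genes to rise (0.96 ± 0.16, adjusted p = 0.00159), 0 fell, and 2 rose without EtOH replicate 1.

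Of 11 tested neuronal genes 0 rose and 4 fell, against 5.53% and 5.49% of all tested genes, with a median of -0.57. RIMS2 of the presynaptic active zone went from 9.87 and 9.61 to 8.00 and 8.40, by -1.54 ± 0.21 (adjusted p = 0.000377), and the adhesion gene NRCAM became undetected, at least 1.96-fold lower (adjusted p = 0.000107). SYBU and RALYL were the others. Without each sample in turn, 4 or 5 members fell. Of 15 extracellular matrix genes 3 rose and 2 fell, against the same 5.53% and 5.49%. Beside SPP1 and COL9A1, the small proteoglycan DCN was undetected with EtOH and at least 1.98-fold higher (adjusted p = 1.29e-05), POSTN was undetected with EtOH and at least 1.33-fold higher (adjusted p = 0.0119, a call lost without either 9-cis RA sample), and BGN fell (-1.19 ± 0.21, adjusted p = 0.00257).

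DCN is also a fibroblast marker. Of the 6 listed fibroblast markers 3 had a named probe, and COL1A1 was detected on none of the 6 arrays, whereas LUM was detected on all of them and differed by 1.49 ± 0.21. Their summed level over the 2 tested genes was 543 to 885 with EtOH and 1873 to 2101 with 9-cis RA. Of the leukocyte markers CD68, a lysosomal protein that melanoma cells can also express, differed by 1.39 ± 0.16, with 1138 to 1449 with EtOH and 3263 to 3457 with 9-cis RA, while LYZ was detected on no array and CD14 on 1 EtOH array. The other markers of these lists were not analysed here. The part of other cells in the matrix results was not tested.

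Interferon-stimulated genes held 3 rises among 14 and 0 falls, against 5.53% and 5.49% of all tested genes. IRF9, a subunit of the interferon-activated complex, rose by 0.88 ± 0.15 (adjusted p = 0.00242). IFIT3 had EtOH values of 5.84 and 7.24, more than 1 apart, against 8.43 and 8.21 (1.78 ± 0.41, adjusted p = 0.0133, and 0.62 from its other probe), and IFIT1 rose by 0.64 ± 0.15. IRF9 kept its call without each sample, and the IFIT genes were called in 1 of 4 such fits each. The remaining lists had 0 to 3 members called in a direction, beside the same 5.53% and 5.49% of all tested genes. Of 17 integrins and cadherins 1 rose and 3 fell (CDH3, CDH7 and NRCAM), and of 13 genes of MHC class I presentation 1 rose and 0 fell. Of 3 metallothioneins, 21 respiratory chain genes and 17 ribosomal protein genes, 1 each fell and 0 rose. Of 16 NRF2 and glutathione genes, GSTA1 rose (detected on no EtOH array and on 2 of 3 treated arrays, at least 1.72-fold) and HMOX1 and SRXN1 fell, of which neither was called without either 9-cis RA sample. HK2 of glycolysis fell (-1.23 ± 0.19, and -0.33 from its other probe), the 1 call among 18 genes of glycolysis and hypoxia (1 rose and 2 fell without EtOH replicate 2-3). Of 17 genes of the unfolded protein and amino acid responses HSP90B1, CHAC1 and VLDLR rose, against 0 without EtOH replicate 1 or without either 9-cis RA sample. HLA-C of antigen presentation (0.79 ± 0.21) and the adhesion gene MCAM (0.59 ± 0.18) rose, and the cadherin CDH3 (-0.75 ± 0.18), the metallothionein MT1X (-0.85 ± 0.21), ATP5MC1 of ATP synthase (-0.84 ± 0.21) and RPL13 of the ribosome (-0.71 ± 0.20) fell, and none of these 6 kept its call without EtOH replicate 1.

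Small noncoding RNA genes were collected as a class after SNORA12, a small nucleolar RNA, had appeared among the largest falls. The class holds small nucleolar, small nuclear and Y RNAs by RefSeq biotype, and small Cajal body RNAs by symbol. Of its 131 tested genes (104 small nucleolar, 12 small nuclear, 11 small Cajal body and 4 Y RNAs), 51 fell (38.9%) and 0 rose, against 5.06% and 5.78% of 10142 protein-coding genes. The median difference was -0.77, and 123 of the 131 lay below 0. MicroRNA genes were left out of the class. Of 30 tested, 1 fell and 0 rose, with a median of -0.04. Since the class was chosen from these values, its counts are a description only.

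SNORA12 went from 8.20 and 6.94 to 5.37 and 5.31, undetected on the treated arrays and at least 3.71-fold lower (adjusted p = 0.00124). The small nucleolar RNA SNORD36A, detected on all 6 arrays, went from 10.37 and 10.01 to 8.64 and 8.87, by -1.44 ± 0.18 (adjusted p = 0.000235), and SNORD96A by -1.75 ± 0.25 (adjusted p = 0.000633). The spliceosomal U1 gene RNU1-1 differed by -1.30 ± 0.32 (adjusted p = 0.0191). Across samples the class median was 7.00 and 6.43 with EtOH and 5.91 and 5.85 with 9-cis RA at 48 h, so the groups did not overlap. At 24 h it was 7.05 and 6.99 with EtOH and 6.11 and 6.28 with 9-cis RA. The same EtOH pair that differed across all genes differed here, and the count fell to 13 without EtOH replicate 1, rose to 77 without replicate 2-3, and was 15 and 20 without 9-cis RA replicates 1 and 2-3. The class median was -0.35 without background correction (44 lower) and -0.24 in the authors' values (39 lower). Per the labels, cDNA was primed with oligo(dT), and most RNAs of this class carry no long poly(A) tail.

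**Figure D4:**
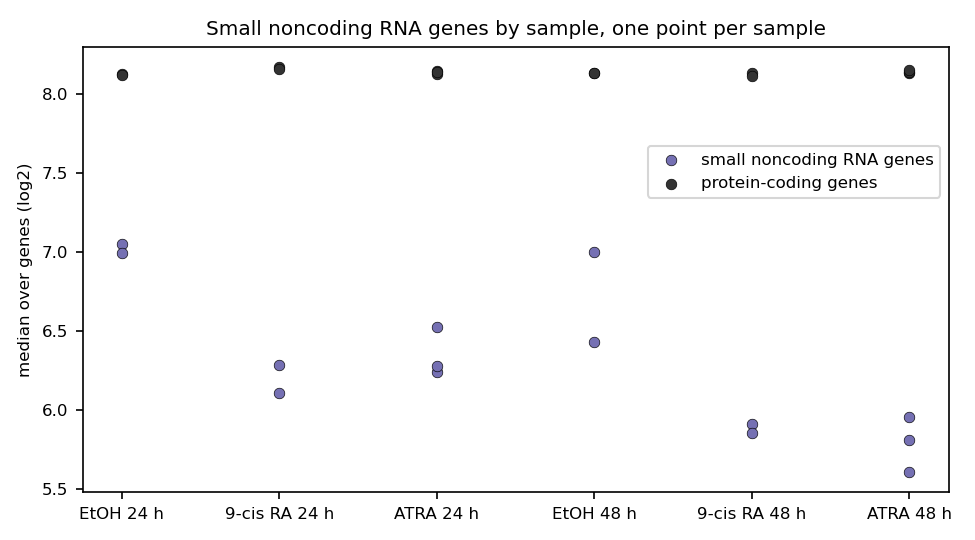
Median normalized log2 intensity (y axis) of the 131 small noncoding RNA genes (purple) and of protein-coding genes (black) in each of the 14 samples, by group (x axis). At 48 h the purple points lie at 7.00 and 6.43 with EtOH and at 5.91 and 5.85 with 9-cis RA, while the black points lie between 8.12 and 8.15.

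Set directly against ATRA at 48 h (3 samples from 4 arrays at the same dose), 9-cis RA differed in 4 of 10673 genes (0.0375%), 3 higher and 1 lower, with 567 at an unadjusted p under 0.05. CYP26B1 stood at 8.74, 8.84 and 8.89 with ATRA and at 6.56 and 6.46 with 9-cis RA, a difference of -2.32 ± 0.14 (adjusted p = 3.66e-06). ECM1 stood at 8.02, 8.01 and 7.99 with ATRA, close to its EtOH values, and at 9.30 and 9.28 with 9-cis RA, a difference of 1.29 ± 0.12 (adjusted p = 0.000243). SERPINA3, a serine protease inhibitor, was detected on no EtOH array and 1 of 4 ATRA arrays, and stood at 7.63 and 6.99 with 9-cis RA against 5.53, 5.36 and 5.18, at least 2.73-fold higher than with ATRA (adjusted p = 0.000304). Against EtOH it was at least 3.06-fold higher.

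These 3 genes kept their call in each of the 5 fits without 1 sample. IL1RAPL1, a synaptic receptor of the interleukin receptor family, differed by 0.94 ± 0.14 (adjusted p = 0.0472) and kept its call in none of them. The 30 genes with the largest rises and falls were not among the calls. Their fitted differences between the isomers lay between -0.36 and 0.91, with adjusted p of 0.11 or more. The 95% interval of the difference, taken gene by gene with no adjustment, was 0.21 to 0.75 for CYP26A1, -0.24 to 0.37 for SPP1 and -0.89 to 0.16 for LRAT. That of CYP26A1 lies above 0, although its adjusted p was 0.73. So do those of SLC26A4 (0.55 to 1.26), RASD1 (0.27 to 0.91) and MGP (0.04 to 0.74), with limma's adjusted p of 0.11, 0.72 and 0.88. The intervals of the other genes of the 30 include 0. CD36 (0.93 ± 0.16, interval 0.60 to 1.27) and CHAC1, detected on 1 of 4 ATRA arrays and at least 1.48-fold higher with 9-cis RA, missed the threshold, each at an adjusted p of 0.0818. The comparisons of each isomer with EtOH share their controls.

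The effect of 9-cis RA at 48 h was also set against that at 24 h. The change passed in 1 of 10673 genes (0.00937%), KCNJ13, with 1433 at an unadjusted p under 0.05. KCNJ13 stood at 5.27 and 5.07 with EtOH and 6.68 and 6.76 with 9-cis RA at 24 h, and at 5.03 and 5.04 and 8.33 and 8.28 at 48 h, at least 2.05-fold and at least 6.1-fold higher with 9-cis RA. The change of its fitted difference was 1.72 ± 0.21 (adjusted p = 0.0179), a value that rests in part on EtOH signals below detection at both times. The 9-cis RA samples were detected on all arrays at both times and did not overlap between them. The call was kept in 2 of the 8 fits without 1 sample, and without EtOH replicate 2-3 at 48 h 244 genes passed. CYP26A1 (at least 45.0-fold higher at 24 h and 65.1-fold at 48 h), RASD1 (a difference of 4.14 against 4.07) and HSPB7 (at least 6.88-fold and 5.51-fold lower) did not pass. DCN, detected on no EtOH or 9-cis RA array at 24 h, did not pass either (adjusted p = 0.0698).

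**Figure D5:**
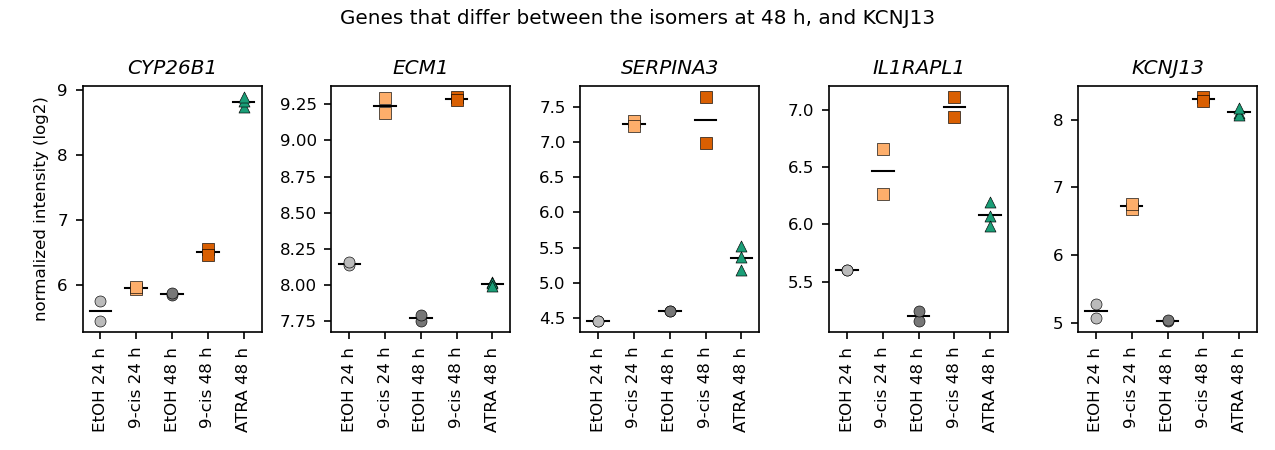
Normalized log2 intensity (y axis) of the 4 genes that differed between the isomers at 48 h and of KCNJ13, with 1 point per sample and the group mean as a bar. CYP26B1 lies at 8.74 to 8.89 with ATRA and at 6.46 to 6.56 with 9-cis RA at 48 h, ECM1 and SERPINA3 are the reverse, and KCNJ13 is higher with 9-cis RA at 48 h than at 24 h.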

How the data were processed

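Biotin-labelled RNA of Mel202 cells was hybridised to Illumina BeadChips, per the labels. The deposited table holds a non-normalized intensity of each of 47323 probes on each array and, beside it, a detection p-value that the authors deposited. The authors' series matrix holds log2 values of 22579 probes, made with lumi per the submitters' processing notes, with their normalization and filter not given in the sources used here. That matrix was used as an alternative and for its link from probes to genes.

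Background correction, quantile normalization and the log2 step were done by neqc of limma 3.58.1 (offset 16, R 4.3.3). A probe was kept when its detection p was under 0.01 on 3 or more of 20 arrays (18269 probes), and the brightest of the 14194 with 1 gene stood for each of 10673 genes. Symbols were checked by Entrez ID against RefSeq, which changed 0. All 14 samples of 6 groups were fitted in 1 limma model (8 residual and 5.09 prior degrees of freedom). Arrays of 1 sample number were averaged. Their residuals from the group mean had a median correlation of -0.451, against -0.498 for other arrays of a group. Residuals from the mean of so few arrays correlate negatively by construction, so these values cannot show how alike such arrays are. With a term that sets the 12 arrays with the most detected probes apart from the other 8, the correlation within a sample number was 0.648. Figures were drawn with matplotlib 3.10.9. The script was tested on simulated data.

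The genes, lists and tests were chosen with earlier results of these data known. Named genes are the 15 largest rises and falls among calls without overlap, up to 6 called and 2 bright uncalled members of each list, a set of retinoid, lipid and pigment genes, and the calls of the other 2 comparisons, beside marker genes and examples of the small RNA class. The alternatives were other background, scaling, filter, probe and variance settings, the authors' values, array subsets, and leaving out each sample. Leaving out a sample puts 1 sample in its group, which is assumed to vary like the others.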

Additional observations from a re-analysis of the deposited data

Results flagged for a closer look

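The effect of 9-cis RA on KCNJ13, a potassium channel gene, differed between the times by an interaction term in limma. It was 1.72 higher on the log2 scale at 48 h than at 24 h (adjusted p = 0.0179), with both 9-cis RA samples at 48 h above both at 24 h and the EtOH signals below detection at both times. No group held 4 or more samples, so single samples could not be examined for outlying values.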

How the results depend on the processing

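No paired analysis was possible because no label pairs a 9-cis RA sample with an EtOH sample. None of the 190 named genes reversed a called direction under any alternative. With only the 48 h 9-cis RA and EtOH groups in the fit, 56 of the 114 named genes that were called kept their call. RARB, TBX2, PLTP, IRF9 and HK2 were among those that did not. Of the 114 that were called, 37 kept the call under every alternative run for them, and 67, with all 30 of the largest rises and falls, kept it without each sample in turn. For 9-cis RA against EtOH, the 1176 calls became 248 with only these groups in the fit, 1974 with 20 arrays taken as independent, and 73 within the 8 arrays that detected the fewest probes (1 array in each of these groups, so the spread comes from the ATRA groups). Within the other 12 arrays there were 1432, and 1478 with this array set as a term and sample number as a random block. Leaving out 1 sample gave 442 to 2576. The share of calls that were higher was 50.2%, and 46.0% with equal array medians (398 higher and 468 lower of 866), 62.9% with only these groups, 71.2% in the set of 8 arrays and 58.7% without 9-cis RA replicate 2-3. Differences were compressed without background correction or in the authors' values, where 113 and 86 genes in place of 233 rose by 2-fold or more and 50 and 29 in place of 180 fell by as much. For 9-cis RA against ATRA, the 4 calls became 7 without background correction and in the authors' values, 1 with only these groups and in the set of 12 arrays, 15 with arrays as independent and 0 in the set of 8 (295 at an unadjusted p under 0.05 in limma). CYP26B1 was called in 16 of 17 alternatives, ECM1 in 14 of 17, SERPINA3 in 13 of 16 and IL1RAPL1 in 3 of 17. For the change between the times, the 1 call became 4 without background correction, 8 in the authors' values, 3 with a mean trend and robust prior, 23 with the random block, 98 in the set of 12, 428 with arrays as independent, and 0 with equal array medians, only these groups or the set of 8 (1108, 1758 and 638 at an unadjusted p under 0.05). Leaving out 1 sample gave 0 to 244. The causes of these changes were not tested. Signals near background limit the folds of undetected genes to bounds.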
